A study of Mus musculus with 8 samples.

Results

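The genes described here are 9 genes of the actin and intermediate filament cytoskeleton, Actb, Actg1, Vim, Tpm1, Tpm2, Tpm4, Vcl, Flna and Cnn2, together with Srf, the gene of serum response factor. They were chosen by name, and all 10 were present among the 10690 genes listed in at least 1 of the deposited gene tables and among the 9875 genes listed in all 3. The cells were NIH3T3, an established mouse embryonic fibroblast line grown with calf serum, and no genotype or genetic change is given for any group. NT cells were untreated. AS cells were kept for 1 h in 250 μM sodium arsenite, a compound that causes oxidative and proteotoxic stress. RC4 and RC8 cells received the same arsenite treatment, were washed and then spent 4 h or 8 h in regular medium. Each condition had 1 QuantSeq FWD library, a 3′ end library whose reads lie shortly upstream of the polyadenylation site (PAS), so the spread between cultures is unknown and no test between conditions could be made. The 3 comparisons also share the single NT library. The 4 QuantSeq REV libraries of the same RNA were not analysed here.

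As background, actin monomers assemble into filaments that tropomyosins coat, filamins crosslink and vinculin couples to adhesion sites. SRF is a transcription factor that binds the CArG box, and many cytoskeletal genes, including actin genes, vinculin and Srf itself, are known targets. Its cofactors of the MRTF family bind actin monomers and are held back by them, which ties transcription of these genes to the state of actin, while cofactors of the TCF family connect SRF to growth factor signaling and immediate early genes.

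Levels are given as RPM, the reads of a gene scaled to 1 M reads on all genes of the same table, and changes as log2 ratios over NT. Intervals are 95% counting intervals, exact Poisson for a level and exact binomial for a ratio, and they cover the counting of reads only. Where PCR copies carry no molecular identifier, a read is not an independent observation of a molecule. RPM is a relative measure, so a lower level could reflect fewer transcripts of the gene or more of other transcripts, which cannot be told apart in bulk libraries. A change in total RNA per cell is not seen in RPM. The libraries had between 22.4 M and 23.0 M reads on genes. Every listed gene had at least 50 reads in both libraries of its comparison. A gene that is not listed may therefore still be expressed, and one with few reads in NT is left out even if induced. Of 6 arsenite-inducible genes used as a check of the labels, 4 were listed and all 4 were at least 1.5-fold higher in AS and RC4 and 3 in RC8. Hspa1b, a stress-inducible Hsp70 chaperone gene, had 42.3 RPM in NT, 218 in AS, 2369 at RC4 and 90.4 at RC8. All 7 fibroblast markers looked for were listed, with a summed level of 12698 RPM in NT, 13142 in AS, 9810 at RC4 and 7291 at RC8. None of the epithelial, endothelial and muscle markers was listed, and Cd14 was the only listed immune marker, at 8.18 to 22.5 RPM. The summed fibroblast markers were thus lowest in RC8, the library with the lowest levels of Vim and Tpm1, and their part in those results was not tested.

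Because SRF acts through the CArG box, the promoters were searched for it. The box is CC, a run of A or T letters and GG, 10 bases in all, and it reads as a box on both strands. Promoter sequences of RefSeq (GRCm38.p6) were taken from 250 bases before to 50 bases after the start site. Of the 10 genes, 9 had an entry, and Actb had none and was not searched. Of the 9, 4 held a box in the window. In the whole set, 535 of 32851 promoters held one (1.63%), which is a share of promoters and not of genes. Known SRF targets are among the genes searched, so a higher share follows from the choice of genes and is no test. The stretches with the boxes are shown along the strand of the gene, with the boxes in capitals, because they are the known type of SRF site.
Srf, chr17:46556215-46556244, minus strand: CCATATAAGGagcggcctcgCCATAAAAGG
Actg1, chr11:120348566-120348595, minus strand: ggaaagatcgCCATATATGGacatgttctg
Cnn2, chr10:79988534-79988563, plus strand: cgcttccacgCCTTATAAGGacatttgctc
Vcl, chr14:20929161-20929190, plus strand: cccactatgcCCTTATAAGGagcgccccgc
The Srf promoter held 2 boxes, which began 82 and 62 bases before the start site. The single boxes began 56 bases before the start site in Cnn2, 90 in Actg1 and 227 in Vcl. These letters were not found in the windows of Vim, Tpm1, Tpm2, Tpm4 and Flna. A match is a description of the sequence, and binding was not measured.

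The 2 cytoplasmic actins were highest in RC8 in RPM and in RC4 relative to the median gene, and lowest in NT on both scales. Gene positions are those of GENCODE vM1 on mm9. Actb, which encodes β-actin (chr5:143664794-143668433, minus strand), had 4365 RPM in NT, 4649 in AS, 4756 at RC4 and 5596 at RC8. Its log2 change was 0.09 in AS (0.08 to 0.10), 0.12 at RC4 (0.11 to 0.13) and 0.36 at RC8 (0.35 to 0.37), the last a 1.28-fold higher level. Actg1, which encodes γ-actin (chr11:120207004-120209856, minus strand), had 1673 RPM in NT, 1933 in AS, 2190 at RC4 and 2451 at RC8. All neighbours in the order NT, AS, RC4, RC8 differed in RPM beyond counting error for both genes. The log2 change of Actg1 was 0.21 in AS (0.19 to 0.23), 0.39 at RC4 (0.37 to 0.40) and 0.55 at RC8 (0.53 to 0.57), and that in RC8 was a 1.46-fold higher level. Together the 2 genes made up 6038 RPM in NT, 6582 in AS, 6947 at RC4 and 8047 at RC8.

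Reads were counted at transcript ends, so that read numbers do not scale with transcript length, and the 2 actins can be set against each other. Actg1 had 0.383 reads per Actb read in NT (0.379 to 0.388), 0.416 in AS (0.411 to 0.420), 0.461 at RC4 (0.456 to 0.465) and 0.438 at RC8 (0.434 to 0.442). The ratio was therefore highest in RC4, with Actb 1.18-fold and Actg1 1.12-fold higher in RC8 than in RC4 in RPM. These steps turned to −0.07 and −0.14 on the log2 scale relative to the median gene. The coding regions of the actin genes are nearly identical and the genome holds processed copies of them. The listed PASs of both genes lie in 3′-most exons, outside coding sequence. Likeness of the coding regions therefore matters only for reads that reach into them. The mapping settings in the paper allowed reads with several matches. How such reads were counted is not given in the sources used here, and the split between the actins is uncertain to that extent.

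**Figure D1:**
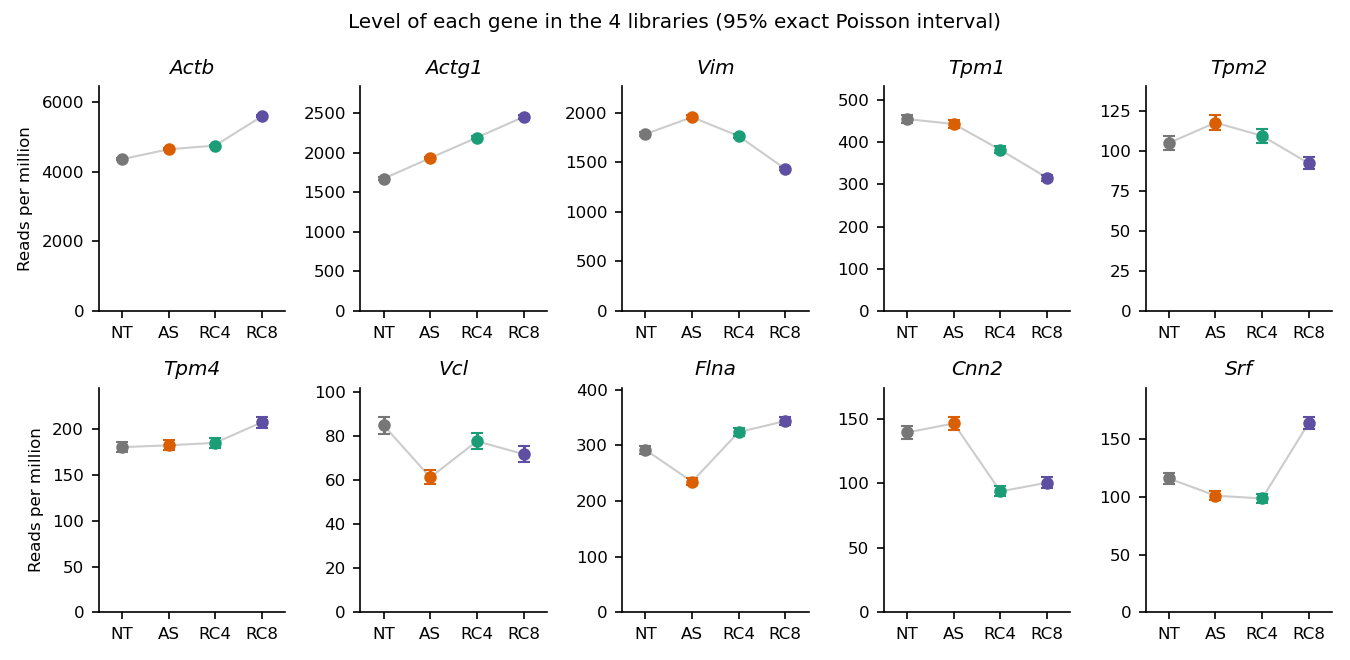
Level of each of the 10 genes in the NT, AS, RC4 and RC8 libraries, in RPM on a linear axis that starts at 0. Points are single libraries and bars are 95% exact Poisson intervals of the counting of reads. In RPM, Actb and Actg1 had their highest level in RC8 (5596 and 2451), which moved to RC4 relative to the median gene, Vim and Tpm1 had their lowest in RC8 (1432 and 316 RPM), and Srf was at 98.4 RPM in RC4 and 164 RPM in RC8.

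Vim encodes vimentin, the main intermediate filament protein of fibroblasts (chr2:13495554-13504453, plus strand). It had 1784 RPM in NT, 1955 in AS, 1764 at RC4 and 1432 at RC8. In RPM the level was highest in AS, whereas NT and RC4 did not differ beyond counting error. Relative to the median gene the highest library was RC4 (0.28, beside 0.17 in AS on the log2 scale), and RC8 was the lowest on both scales. The log2 change was 0.13 in AS (0.11 to 0.15), −0.02 at RC4 (−0.04 to 0.00042) and −0.32 at RC8 (−0.34 to −0.30).

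The tropomyosin genes did not share one order across the libraries. Tpm1 (chr9:66870397-66897213, minus strand) encodes an α-type tropomyosin, and its level was 455 RPM in NT, 444 in AS, 382 at RC4 and 316 at RC8. NT and AS did not differ beyond counting error, and RC8 was the lowest. RC4 was below NT in RPM but 0.05 above it on the log2 scale relative to the median gene. The log2 change of Tpm1 in RC8 was −0.53 (−0.57 to −0.48), the lowest of the 10 genes in that comparison. Tpm2 (chr4:43527583-43536637, minus strand), a β-type tropomyosin gene, had 105 RPM in NT, 118 in AS, 110 at RC4 and 92.5 at RC8. Its highest level in RPM was that of AS, although RC4 was above AS relative to the median gene (0.36 and 0.21 on the log2 scale), and its lowest was that of RC8 on both scales. The log2 changes in RPM were 0.16 in AS (0.08 to 0.25) and −0.18 in RC8 (−0.27 to −0.10). Tpm4 (chr8:74658874-74677041, plus strand) encodes a non-muscle tropomyosin and had 180 RPM in NT, 182 in AS, 185 at RC4 and 207 at RC8. The first 3 of these levels did not differ from their neighbours beyond counting error, and the log2 change in RC8 was 0.20 (0.14 to 0.26). In RC8 against RC4, Tpm4 was 1.12-fold higher while Tpm1 and Tpm2 differed by −0.27 and −0.25 on the log2 scale, all in RPM. The step of Tpm4 turned to −0.14 relative to the median gene, and those of Tpm1 and Tpm2 were −0.58 and −0.55.

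The genes of the 2 large actin-binding adaptors were lowest directly after the stress. Vcl (chr14:21748655-21852895, plus strand) encodes vinculin, which links actin to integrin and cadherin adhesions. It had 84.7 RPM in NT, 61.2 in AS, 77.6 at RC4 and 71.8 at RC8, and all neighbours in the order NT, RC4, RC8 and AS, from high to low, differed in RPM beyond counting error. With the median gene set to 0, RC4 was the highest (0.17 on the log2 scale) and AS again the lowest. Its log2 change of −0.47 in AS (−0.57 to −0.37) was the lowest of the 10 genes in that comparison. Flna (chrX:71468800-71495159, minus strand) encodes filamin A, a crosslinker of actin filaments. It had 292 RPM in NT, 235 in AS, 324 at RC4 and 344 at RC8. AS was below NT and both recovery libraries were above it, with log2 changes of −0.31 (−0.37 to −0.26), 0.15 (0.10 to 0.19) and 0.23 (0.19 to 0.28). In RC4 against AS, Flna was 1.38-fold and Vcl 1.27-fold higher.

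Cnn2 (chr10:79451329-79458807, plus strand) encodes calponin 2, an actin-binding protein of smooth muscle and other cells. It had 139 RPM in NT, 146 in AS, 93.6 at RC4 and 100.4 at RC8. NT and AS did not differ beyond counting error, and both were above the recovery libraries. The log2 change was 0.07 in AS (−0.00028 to 0.14), −0.58 at RC4 (−0.66 to −0.50) and −0.47 at RC8 (−0.55 to −0.39). In the RC4 library the 2 deposited count columns held 1129 and 1015 reads of Cnn2, a difference of 10.6% of their mean and the widest between columns among the 10 genes.

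Srf (chr17:46683788-46693111, minus strand) encodes the transcription factor itself. It had 116 RPM in NT, 101 in AS, 98.4 at RC4 and 164 at RC8. AS and RC4 did not differ beyond counting error and both were below NT in RPM, although RC4 was 0.07 above NT on the log2 scale relative to the median gene, and RC8 was above all other libraries. The log2 change was −0.20 in AS (−0.28 to −0.12), −0.24 at RC4 (−0.32 to −0.16) and 0.50 at RC8 (0.43 to 0.57). Between RC4 and RC8 the level differed 1.66-fold, or 0.73 on the log2 scale (0.66 to 0.81), the widest such step among the 10 genes in RPM. The step of Srf relative to the median gene was 0.43, smaller in size than those of Vim (−0.61), Tpm1 (−0.58) and Tpm2 (−0.55). Of the 4 genes with a CArG box in the promoter window, Srf and Actg1 were higher in RC8 than in NT, and Vcl and Cnn2 were lower.

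All 10 genes were within 1.5-fold of NT in the 3 comparisons. None was at least 1.5-fold higher or lower than NT in AS, where 13.3% of all genes of the table passed this fold in either direction. The count was also 0 in RC4, against 39.8% of all genes, and 0 in RC8, against 23.2%. These folds compare single libraries. Listed genes can have as few as 50 reads in a library, whereas the 10 genes had at least 1373, and the part of read depth was not tested. The gene nearest to the fold was Cnn2 in RC4, whose log2 change of −0.58 was a 1.49-fold lower level, and the next was Actg1 in RC8. At a fold of 1.2, which was chosen after seeing the data, 2 of the genes, Vcl and Flna, were lower in AS and 0 were higher, where 27.4% of all genes were lower and 9.65% higher (37.1% in all). In RC4, Actg1 was higher and Cnn2 lower, where 15.6% of all genes were higher and 52.9% lower (68.5% in all). In RC8, 6 of the genes passed, Actb, Actg1 and Srf on the higher side and Vim, Tpm1 and Cnn2 on the lower, where 28.8% of all genes were higher and 28.1% lower (56.9% in all). None of the 10 genes differed 2-fold, which 3.85% of all genes did in AS, 17.1% at RC4 and 6.5% at RC8.

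The median absolute log2 change of the 10 genes was 0.15 in AS, 0.14 at RC4 and 0.34 at RC8, beside 0.19, 0.46 and 0.31 over all genes of the tables. With signs, the median log2 change was 0.04 in AS, with 6 genes above 0, and 0.01 in both RC4 and RC8, with 5 genes above 0 in each. Over all genes the medians were −0.04 in AS, −0.30 at RC4 and 0.01 at RC8, and the share above 0 was not counted. The summed level of the 10 genes was 9195 RPM in NT, 9823 in AS, 9981 at RC4 and 10775 at RC8, of which the 2 actins made up the larger part in each library.

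**Figure D2:**
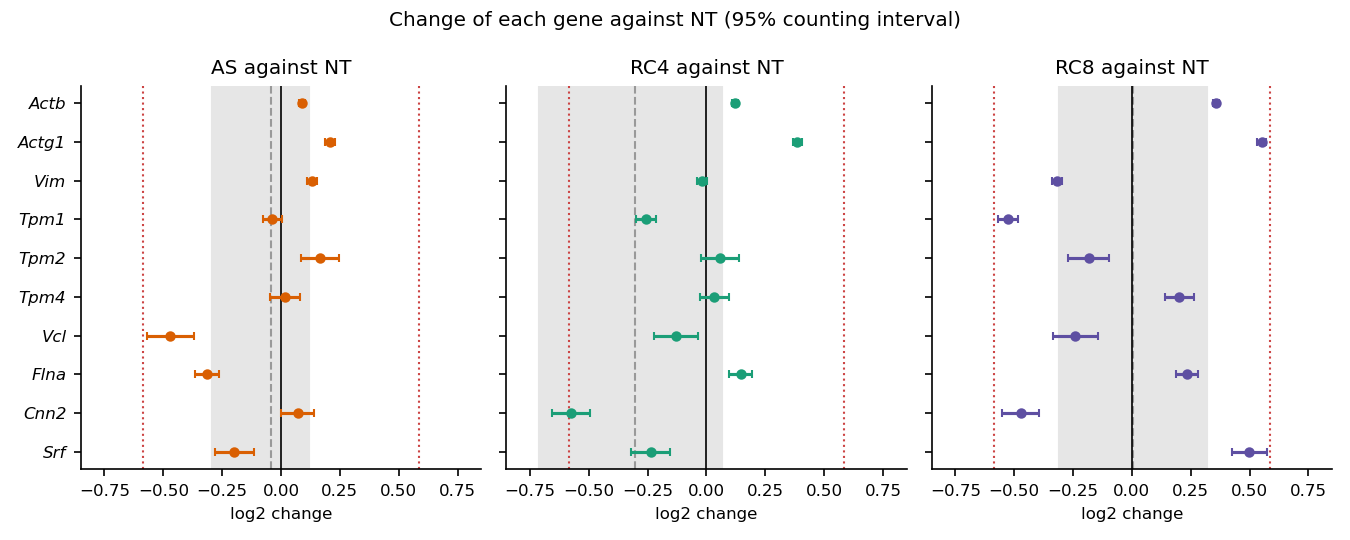
Log2 change of each of the 10 genes over NT, with one panel per comparison. Points are the log2 ratio of RPM between 2 libraries, bars are 95% counting intervals, the grey band and dashed line are the quartiles and the median of all genes of the table, and dotted lines mark a fold of 1.5. No point lies beyond the dotted lines, and in RC4 most points lie to the right of the median of all genes, which was −0.30.

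The median gene was lower in RC4 than in NT by this measure, with a log2 change of −0.30, compared with −0.04 in AS and 0.01 in RC8. Directions in RC4 therefore depended on the scale. Relative to the median gene, the log2 change in RC4 was 0.69 for Actg1, 0.45 for Flna, 0.42 for Actb, 0.36 for Tpm2 and 0.34 for Tpm4. Vim, Vcl, Srf and Tpm1 were below NT in RPM but at 0.28, 0.17, 0.07 and 0.05 relative to the median gene, so their direction in RC4 flipped. Cnn2 was the only one of the 10 genes below 0 on both scales in RC4, at −0.27 relative to the median gene. The same scale moved the split of all genes past 1.5-fold in RC4 from 8.04% higher and 31.8% lower to 15.0% higher and 17.4% lower. It moved the split of the 10 genes from 0 and 0 to 1 higher (Actg1) and 0 lower. The order of the libraries turned as well. In 8 of the 10 genes, all but Cnn2 and Srf, RC4 was the highest library relative to the median gene, and Srf was the only one of the 10 above RC4 in RC8 on that scale, a comparison added after seeing the data. The share of all genes with these orders was not counted, so they cannot be called particular to the 10 genes. In AS, Tpm1 also changed sign, from −0.04 to 0.0034, and no sign differed between the scales in RC8.

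Genes with the change pattern nearest to that of Srf and Actb were sought among 7814 genes that had 200 reads or more in every library, by the Euclidean distance of the 3 log2 changes. The nearest to Srf were Snupn at 0.05, Dcaf10 at 0.05 and Has2, a hyaluronan synthase gene, at 0.05, and the nearest of the other 9 genes was Tpm4 at 0.46. For Actb they were Aif1l, whose product binds actin, at 0.02, Gstm2 at 0.03 and Dctn3, a dynactin subunit gene, at 0.03, and the nearest of the 9 was again Tpm4, at 0.19. These distances rest on 4 libraries and are given as a description.

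The other SRF and MRTF targets of the list were examined for the same conditions. Of 23 such genes, 20 were listed in AS and RC4 and 19 in RC8. In AS, 0 were at least 1.5-fold higher (1.88% of all genes) and 3 were at least 1.5-fold lower (11.4% of all genes), with a median log2 change of −0.02. Those 3 were the non-muscle myosin gene Myh9 (−0.74), the integrin gene Itga5 (−0.68) and Lpp, an adhesion protein gene (−0.79), all named after their values were seen. In RC4, 2 were higher (8.04% of all genes) and 1 was lower (31.8%). The PDZ and LIM domain genes Pdlim5 and Pdlim7 were higher by 0.71 and 0.98 on the log2 scale, and Filip1l was at −1.52. Relative to the median gene the split in RC4 was 5 higher and 1 lower, beside 15.0% and 17.4% of all genes on that scale. In RC8, 1 was higher (11.3% of all genes) and 4 were lower (11.9%), namely Pdlim7 (1.16) in one direction and Filip1l (−0.74), Lpp (−0.59), Fhl1 (−1.01) and the myosin light chain gene Myl9 (−1.42) in the other. Lpp, Fhl1 and Myl9 were again named after their values were seen, and Myl9 and Fhl1 were low, at 7.09 and 12.0 RPM in NT. The median log2 change was 0.01 at RC4 and −0.16 at RC8. A CArG box in the promoter window was found in 6 of the 20 genes of this list with an entry, beside 1.63% of all promoters, which is not a share of genes. This list was made of known SRF and MRTF targets, so a higher share follows from its choice and is no test. The 6 were Myl9, Fhl1, Fhl2, Lima1, Filip1l and Acta1, the last of which was not listed in any comparison. Only exact boxes inside the window were sought, so other or more distant SRF sites were not seen in any list. Among the lists described next, a box was found in 1 of 6 immediate early genes (Egr2), 0 of 5 cofactor genes, 1 of 27 turnover genes (Arpc4), 1 of 11 genes of crosslinkers, myosin and cortex (Myl6), 1 of 5 focal adhesion genes (Fermt2) and 0 of 6 other intermediate filament and lamin genes.

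Immediate early genes that SRF controls with TCF cofactors were examined next. Of 9, 7 were listed in AS, and 5 of them were at least 1.5-fold higher than in NT (1.88% of all genes) and 0 lower (11.4%), with a median log2 change of 0.67. Egr1, a zinc finger transcription factor gene, had 146 RPM in NT, 893 in AS, 329 at RC4 and 119 at RC8. Ier2 had 44.8 RPM in NT, 144 in AS, 47.3 at RC4 and 60.1 at RC8. Nr4a1, an orphan nuclear receptor gene, had 104 RPM in NT, 165 in AS, 48.1 at RC4 and 39.5 at RC8. These 3 genes were highest in AS. Mcl1, which encodes a BCL2 family survival protein, had 197 RPM in NT, 229 in AS, 239 at RC4 and 196 at RC8, and so was highest in RC4, and Egr3, named after its values were seen, had 10.4 RPM in NT, 10.5 in AS, 7.12 at RC4 and 10.9 at RC8. Junb (0.89) and Egr2 (0.66) were the others of the 5 and were named after their values were seen. In RC4, Egr1 was the only one of 7 at least 1.5-fold higher and Nr4a1 the only one lower, beside 8.04% and 31.8% of all genes. Relative to the median gene, 2 of the 7 were higher and 1 was lower in RC4, beside 15.0% and 17.4% of all genes. In RC8, 0 of 6 were higher and 2, Nr4a1 and Junb, were lower, beside 11.3% and 11.9% of all genes.

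Of 6 SRF cofactor genes, 5 were listed, and all 5 were below NT in AS, with a median log2 change of −0.47, beside −0.04 over all genes. The share of all genes below NT was not counted, and their median was itself below 0. Mkl2, which encodes an MRTF, was at −0.92 in AS, −0.38 at RC4 and 0.38 at RC8, and Mkl1, the gene of the other MRTF, at −0.25, 0.12 and −0.33. The TCF genes Elk1 and Elk3 were at −0.33 and −0.47 in AS, and Elk4, named after its value was seen, at −1.25. Only Mkl2 and Elk4 passed 1.5-fold in AS, both lower (11.4% of all genes). None of the 5 passed in RC4 or RC8, where 39.8% and 23.2% of all genes passed in either direction. Relative to the median gene, 1 of the 5 was higher in RC4, beside 15.0% of all genes on that scale.

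Most genes that turn actin monomers and filaments over did not pass 1.5-fold. Of 30, 1 was at least 1.5-fold lower in AS, 3 were lower in RC4, and 3 were higher and 4 lower in RC8. Of all genes, 11.4% were lower in AS, 31.8% were lower in RC4, and 11.3% were higher and 11.9% lower in RC8, so that the share in RC8 was near that of all genes. In AS it was Ssh1, a cofilin phosphatase gene, at −0.97 on the log2 scale. Vasp, whose product promotes filament growth, had 119 RPM in NT, 112 in AS, 54.1 at RC4 and 88.7 at RC8, and with Ssh1 (−1.01) and the profilin gene Pfn1 (−1.01) it made up the 3 in RC4. Relative to the median gene, 6 of the 30 were higher and 3 lower in RC4, beside 15.0% and 17.4% of all genes on that scale. Enah, of the same family as Vasp, was at 0.46 in RC4, and Actr3, a subunit of the Arp2/3 complex, at 0.50 in RC4 and RC8. In RC8 the cofilin genes parted, with Cfl1 at −0.69 and Cfl2 at 0.63. The other genes past 1.5-fold in RC8 were Limk1 (1.21), which encodes a cofilin kinase, and Arpc4 (0.65), which were higher, and Diaph3 (−1.07), Capzb (−0.66) and Dstn (−0.65), which were lower. Pfn1 and all those named for RC8 were named after their values were seen.

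Among 13 genes of crosslinkers, myosin and the cortex, Flnc, a filamin gene related to Flna, had 74.8 RPM in NT, 64.5 in AS, 175 at RC4 and 215 at RC8. It was below NT in AS and above it in RC4 and RC8, as Flna was, and it was the only one of the 13 at least 1.5-fold higher in RC4 (8.04% of all genes) and in RC8 (11.3%). In AS, 2 of the 13 were lower, Myh10 (−0.99) and Plec (−0.82), both named after their values were seen, beside 11.4% of all genes. In RC4, Myl12b (−0.91) and Mylk (−0.66) were lower, and in RC8 Myl12b (−0.84) and Myh10 (−0.74), beside 31.8% and 11.9% of all genes. Relative to the median gene, 3 were higher and 1 was lower in RC4, beside 15.0% and 17.4% of all genes on that scale.

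Of 8 focal adhesion genes related to Vcl by location, Tns3, a tensin gene, had 57.7 RPM in NT, 31.5 in AS, 110 at RC4 and 103 at RC8, and it passed 1.5-fold in each comparison, where 13.3%, 39.8% and 23.2% of all genes did. Bcar1, which encodes an adaptor of focal adhesion signaling, was at −1.11 in RC4, and no other gene of the 8 passed, whereas 3 were higher and 1 lower in RC4 relative to the median gene, beside 15.0% and 17.4% of all genes. Of 7 other intermediate filament and lamin genes, Lmna and Lmnb1 were listed. Lmnb1 was at −0.73 in AS and −0.97 in RC4 and was the only one to pass, beside 11.4% and 31.8% of all genes that were lower.

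**Figure D3:**
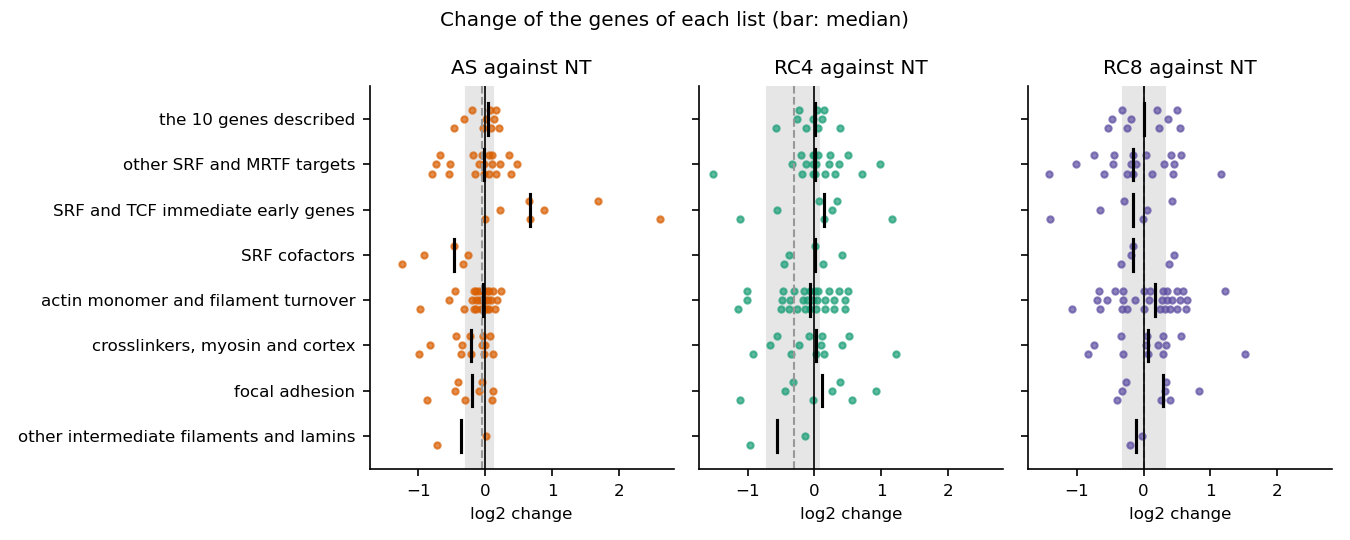
Log2 change over NT of each listed gene, by gene list, with one panel per comparison. Points are genes, black bars the median of the list, and the grey band and dashed line the quartiles and the median of all genes of the table. The immediate early genes reached 2.61 (Egr1) in AS, and the 10 genes in the top line lie between −0.58 and 0.55 in all 3 panels.

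The choice of PAS within a gene is a separate readout of the same reads. Of the 10 genes, 7 had 2 or more PASs in the deposited PAS tables for AS and RC4 and 8 had in that for RC8, with 1 PAS each for Actg1 and Vim. Shares are percentages of a gene's reads, with 95% Wilson intervals. RED is the log2 ratio of distal over proximal PAS in the treated library minus that in NT, for the 2 PASs of the 3′-most exon whose shares differed most, so that a positive value stands for relatively more distal PAS. MAAPER, the program that made the tables, assigns reads to PASs by a model, and the intervals leave out error of that assignment.

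None of the genes with 2 or more PASs had a PAS whose share differed by 10 percentage points or more from NT. Among all genes with 2 or more PASs, the share that did was 15.3% in AS, 29.1% at RC4 and 27.0% at RC8. Listed genes can have as few as 50 reads in a library, where a share is less precise, whereas the described genes had at least 1373. The part of read depth in this contrast was not tested. The largest difference of any PAS in a gene had a median of 1.8 points in AS, 3.2 at RC4 and 3.65 at RC8 over the described genes, compared with 4.2, 6.2 and 6.0 points over all genes. The widest were 4.5 points for a PAS of Tpm2 listed as intronic in AS, 5.4 points for Vcl in RC4 and 5.6 points for Tpm4 in RC8. No other of these genes reached 5 points, whereas 42.6% of all genes with 2 or more PASs did in AS, 59.2% at RC4 and 58.0% at RC8.

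Srf had a proximal and a distal PAS 1486 nt apart in its 3′-most exon. The 30 bases that end at each PAS are shown (mm9, along the strand of the gene, with AATAAA in capitals), together with those of Actb and Vcl, because the shares of these PASs differed among the libraries.
Srf proximal, chr17:46685273-46685302: tctataaatatatatttttaaaatatttaa
Srf distal, chr17:46683787-46683816: ttcAATAAAtgtatcatttttgtgcacaga
Actb proximal, chr5:143665406-143665435: aaaacctaacttgcgcagaaaaaaaaaaaa
Actb distal, chr5:143664828-143664857: gccagggctggcctgtacactgacttgaga
Vcl proximal, chr14:21852731-21852760: tctagtgtcagtgcttacagtacaaggagg
Vcl distal, chr14:21852866-21852895: gtttaaaacAATAAAgtacatttatatgaa
The distal PASs of Srf and Vcl have AATAAA in the stretch shown, whereas neither AATAAA nor ATTAAA stands before either PAS of Actb. Of 23 distinct PASs of the 10 genes, 8 had AATAAA or ATTAAA in the 40 bases upstream, and all 8 were among the 18 listed for a 3′-most exon. The distal PAS of Srf lies 1 base and that of Vcl 0 bases from an annotated transcript end (GENCODE vM1), and that of Actb lies 34 bases from one.

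The proximal PAS of Srf took 5.36% of its reads in NT (4.56 to 6.29), 4.33% in AS (3.57 to 5.25), 2.80% at RC4 (2.19 to 3.56) and 1.67% at RC8 (1.31 to 2.14). The intervals of RC4 and RC8 lie below that of NT and do not overlap each other, whereas those of NT and AS overlap. RED was 0.32 ± 0.19 (counting error) in AS, 0.98 ± 0.22 at RC4 and 1.74 ± 0.22 at RC8. As a level, the proximal PAS had 6.20 RPM in NT and 2.73 in RC8, and the distal PAS had 109 and 161 RPM. The 1.41-fold higher level of Srf in RC8 thus lay at the distal PAS. The RED of Srf was above that of 84.7% of genes in AS, 93.6% at RC4 and 96.3% at RC8. Medians over all genes with a RED were −0.23 in AS, −0.37 at RC4 and −0.14 at RC8. In NT alone, the library with its highest share, did the proximal PAS reach the 5% share at which PASs were kept. Such a choice can favour a positive RED, and its part in these values was not tested. The proximal PAS was also low in RC4 and RC8, at 2.76 and 2.73 RPM.

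The 2 PASs of Actb lie 578 nt apart. Its proximal PAS took 10.8% of reads in NT (10.6 to 11.0), 11.3% in AS (11.1 to 11.5), 13.1% at RC4 (12.9 to 13.3) and 8.65% at RC8 (8.50 to 8.80). No 2 of these intervals overlap, and RC8 was the only library below NT. RED was −0.07 ± 0.02 in AS, −0.32 ± 0.02 at RC4 and 0.35 ± 0.02 at RC8. In RPM, the proximal PAS had 472 in NT and 484 in RC8 and the distal PAS had 3894 and 5109. The stretch that ends at the proximal PAS closes with a run of A letters. The paper describes priming of oligo(dT) inside transcripts at A-rich sequence, and holds that PASs taken from the PolyA_DB database escape it. The part of such priming in the reads at the proximal PAS was not tested.

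**Figure D4:**
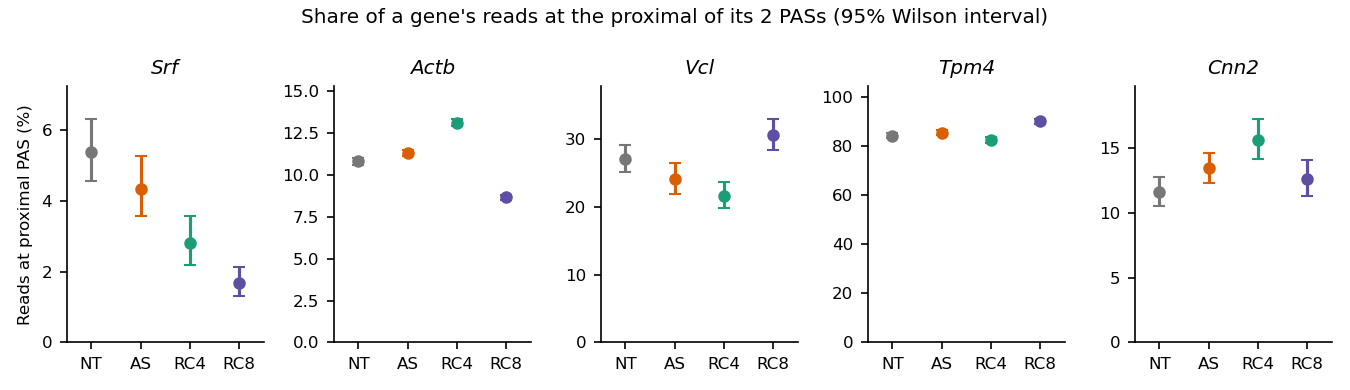
Share of a gene's reads at the proximal of its 2 PASs in each library, in percent, for Srf, Actb, Vcl, Tpm4 and Cnn2. Points are single libraries, bars are 95% Wilson intervals, each panel has its own axis from 0, and NT is from the AS table. For Srf the share is 5.36% in NT and 1.67% in RC8, and for Actb it is highest at RC4 (13.1%) and lowest at RC8 (8.65%).

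Vcl and Tpm4 had pairs of PASs 135 and 125 nt apart, and in each the recovery libraries lay on opposite sides of NT. The proximal PAS of Vcl took 27.0% in NT (25.1 to 29.0), 24.1% in AS (21.9 to 26.4), 21.6% at RC4 (19.8 to 23.6) and 30.6% at RC8 (28.4 to 32.9), and RED was 0.22 ± 0.12, 0.42 ± 0.11 and −0.25 ± 0.11. The interval of the share in RC4 lies below that of NT, whereas those of AS and RC8 overlap it. For Tpm4 the proximal share was 84.3% in NT (84.5% in the RC8 table), 85.5% in AS, 82.5% at RC4 and 90.1% at RC8, and RED was −0.14 ± 0.09, 0.19 ± 0.09 and −0.74 ± 0.09. Cnn2, with PASs 196 nt apart, had 11.6%, 13.4%, 15.6% and 12.6% at the proximal PAS, and RED was −0.24 ± 0.11, −0.49 ± 0.12 and −0.14 ± 0.12. With PASs this close, reads of either overlap and the split rests on the model.

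Tropomyosin transcripts differ in their last exons, and Tpm1 and Tpm2 also had PASs outside the 3′-most exon. In Tpm1, 2 PASs of the 3′-most exon 113 nt apart had a RED of −0.08 ± 0.04 in AS, −0.15 ± 0.05 in RC4 and −0.25 ± 0.05 in RC8. A PAS listed for an internal exon (chr9:66881717) took 12.2% in NT, 15.3% in AS and 15.5% in RC4, and the RC8 table lists one at chr9:66881775 instead, at 12.1% in NT and 12.0% in RC8. Both positions lie in coding sequence of 16 annotated transcripts of Tpm1. For Tpm2, the PAS of the 3′-most exon (chr4:43527631) took 28.1% in NT, 26.6% in AS, 30.2% at RC4 and 32.1% at RC8. Most other reads were at a PAS listed as intronic. It was at chr4:43528806 in the AS and RC8 tables (56.6% in NT, 61.1% in AS and 56.0% in RC8). In the RC4 table it was at chr4:43528762 (50.9% in NT and 52.0% in RC4). By GENCODE vM1, however, chr4:43528806 lies in coding sequence and chr4:43528762 in an untranslated region, each of 2 annotated transcripts of Tpm2. Flna had a single PAS in the AS and RC4 tables, at chrX:71468800, and 2 PASs 111 nt apart in the RC8 table, with 40.6% at the proximal in NT and 41.4% in RC8. PASs were selected for each comparison, so positions and NT shares can differ between tables.

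**Figure D5:**
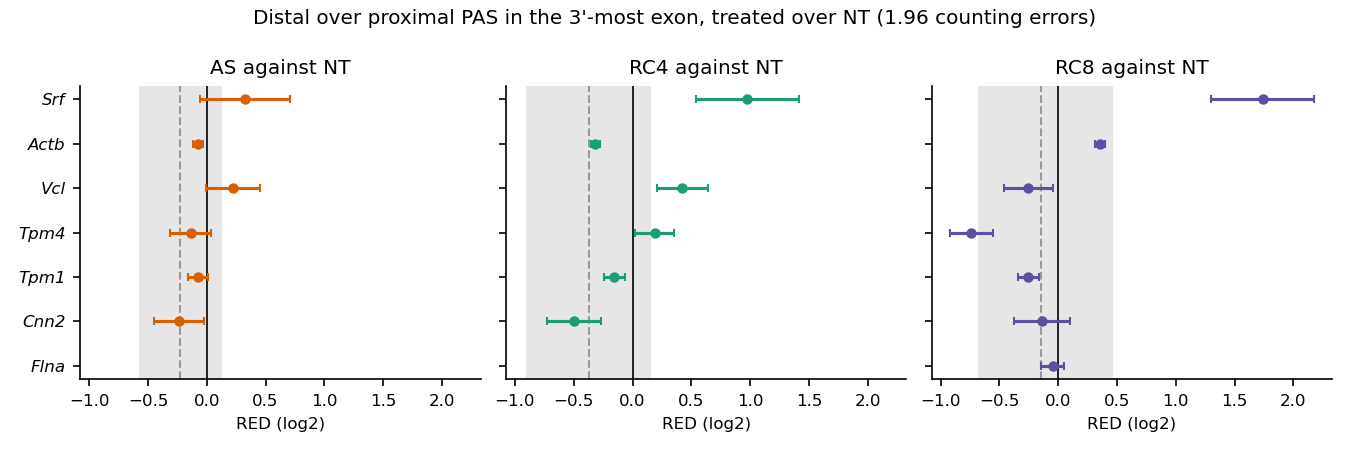
RED of the genes with 2 PASs in the 3′-most exon, on a log2 scale, with one panel per comparison. Points compare 2 libraries, bars are 95% intervals from the counting error, and the grey band and dashed line are the quartiles and the median of all genes with a RED. Srf lies at 0.32, 0.98 and 1.74, and Actb at −0.07, −0.32 and 0.35 in AS, RC4 and RC8.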

How the data were processed

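QuantSeq FWD libraries of NT, AS, RC4 and RC8 NIH3T3 cells were analysed from 3 tables of genes and 3 of PASs. The authors trimmed reads with bbmap and mapped them to mm9 with STAR (2.5.2a in the submitters' processing notes). They ran MAAPER with PolyA_DB v3 on genes with at least 50 reads, keeping PASs at 5%. The deposited counts per gene are not normalized and come in 2 columns per library, which were added and counted as 1 library. The deposited fraction of a gene's reads at each PAS sums to 1 per gene and library. Deposited columns of the authors' own comparisons (RED, relative length differences and P values) were not used, and RED was computed from the fractions. No column of per-sample values (0) was left out. The columns are headed as conditions 1 and 2. Condition 1 was taken as NT, since the tables share it, and condition 2 as the condition a table is named for. NT values came from the table of the same comparison, and in lists of levels from the AS table.

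Between 22.4 M and 23.0 M reads per library lay on genes, and precision is given as counting intervals. RPM, log2 ratios, exact Poisson and binomial intervals (95%) and Wilson intervals were computed with Python 3.11.15, numpy 2.4.6, pandas 2.3.3 and scipy 1.17.1, and figures with matplotlib 3.10.9. The ratios and intervals were tested on simulated data. The counting error of RED came from the reads at its PASs in both libraries. With 1 library per condition, a gene was counted as passing at a fold of 1.5, and a PAS at 10 percentage points.

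The 10 genes and the gene lists were chosen with earlier results of these data known. All 10 were described. Some other genes of the lists are not reported here. From other lists the rule named up to 2 genes with the highest and 2 with the lowest log2 change in RC4 among those with at least 200 reads in each library, plus the 3 nearest to Srf and to Actb. Genes named outside it are marked in the text. Alternatives were median scaling, the study's library totals, totals without the 20 genes with the most reads, each count column alone, the mean NT of the 3 tables, a minimum of 200 reads, a fold of 2, 5 points and shares within the 3′-most exon. A fold of 1.2 and the steps between treated libraries under median scaling were added after seeing the data.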

Additional observations from a re-analysis of the deposited data

Results flagged for a closer look

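Several values lay on opposite sides of NT in a pair of comparisons, each beyond its counting interval. The comparisons share the NT library, and the differences were not tested. For log2 changes in RPM, Srf was at −0.20 in AS and 0.50 in RC8, a difference of 0.70. Flna was at −0.31 in AS, 0.15 in RC4 and 0.23 in RC8, which is 0.46 higher in RC4 and 0.55 higher in RC8 than in AS. Vim was at 0.13 in AS and −0.32 in RC8, a difference of −0.45, and Tpm2 at 0.16 and −0.18, a difference of −0.35. For RED, Actb was at −0.07 in AS, −0.32 in RC4 and 0.35 in RC8, so that RC8 was 0.43 above AS and 0.67 above RC4. Tpm4 was at 0.19 in RC4 and −0.74 in RC8, a difference of −0.93, and Vcl at 0.42 and −0.25, a difference of −0.68.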

How the results depend on the processing

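With 1 library per condition, no library could be left out. No paired analysis was possible because each condition has 1 library and the result comes from no test. Of 60 values of the log2 changes of the 10 genes per comparison under the alternatives listed in the methods, those within the counting interval numbered 55 in AS, 44 for RC4 and 56 for RC8. With a fold of 1.2, chosen after seeing the data, 2 of the 10 genes passed in AS, 2 at RC4 and 6 at RC8. In RC4, 1 of the 10 passed 1.5-fold with median scaling (Actg1), 1 with published library totals (Cnn2) and 1 with the second count column alone (Cnn2), and the median log2 change of the 10 genes was 0.31 with median scaling. At 5 points, 1 gene passed in RC4 (Vcl) and 1 in RC8 (Tpm4), beside 59.2% and 58.0% of all genes. With median scaling in RC4, 15.0% of all genes were at least 1.5-fold higher and 17.4% lower. Beside these, 6 of 20 other SRF and MRTF targets, 1 of 5 SRF cofactor genes, 9 of 30 turnover genes and 4 of 8 focal adhesion genes passed. With a minimum of 200 reads, 3 other SRF and MRTF targets passed in RC8, where 23.2% of all genes passed without that minimum. At a fold of 2, 3.85% of all genes passed in AS, 17.1% at RC4 and 6.5% at RC8. The other SRF and MRTF targets that passed were 0 of 20 in AS, 1 of 20 at RC4 and 3 of 19 at RC8. In AS, 2 of 7 immediate early genes, 1 of 5 cofactor genes and 0 of 30 turnover genes passed 2-fold. In the same comparison, 0 of 13 genes of crosslinkers, myosin and cortex, 0 of 8 focal adhesion genes and 0 of 2 lamin and intermediate filament genes passed. In RC4, 1 of 13 crosslinker, 1 of 8 focal adhesion and 0 of 2 lamin and intermediate filament genes did. In RC8, 1 of 6 immediate early, 2 of 30 turnover, 1 of 13 crosslinker and 0 of 8 focal adhesion genes did. The cause of these differences was not tested, apart from the stricter fold and the smaller number of genes. Depth limits the low genes, such as Myl9 and Itga5, more than the 10 genes described, which had at least 1373 reads in each library.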
